A study of Rattus norvegicus and synthetic construct with 4 samples.

Results

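The elements described here are 54 of the 3378 human islet elements counted in a STARR-seq library, chosen because their midpoints lie within 5 kb of 30 genome points at genes for pancreatic digestive enzymes and related acinar proteins. The points include those of 28 listed genes, and PRSS3 has a pair of points. Genes were given to points by their order along each chromosome, and positions are on hg19, the build in the submitters' processing notes. Of the 30 points, 21 had at least 1 counted element. No counted element lay within 5 kb of the points of CELA2A, CELA2B, CELA3B, SPINK1, PRSS2, PNLIP, GP2 and KLK1 or of the lower PRSS3 point.

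STARR-seq places a candidate sequence inside a reporter plasmid so that it can drive its own transcription, and activity is the RNA of a sequence relative to its plasmid DNA. From maps of transcript starts in human islets, made by CAGE, the study designed 7188 elements of 198 bp and tagged every plasmid with 16 random bases, its barcode. The plasmids, 10 ug per replicate, were electroporated 3 times into 25000000 cells of the rat insulinoma line INS1 832/13, which secretes insulin and often stands in for beta cells, and the cells were harvested 24 h later. The groups are these 3 RNA libraries and 1 library of the plasmid DNA that all replicates received. The human elements were thus read in rat cells of 1 line, outside their chromosomes, and the files hold reporter barcodes only, so the identity of the cells was not checked here.

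Acinar cells make up most of the exocrine pancreas and secrete inactive precursors of proteases, together with lipases and amylase, into the gut. Their enzyme genes are among the most strongly transcribed genes of the pancreas and are known for control by the PTF1 complex, which contains the acinar factors PTF1A and RBPJL. Beta cells are known for insulin and not for these products. The elements therefore stand near exocrine genes, and not near genes that define the beta cell.

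The following barcodes are shown because they carried the RNA of 5 elements whose replicates disagreed and which rested on few plasmids. Each leading or first barcode held most of the RNA of its element, and the second PNLIPRP2 barcode is the only other plasmid of that element. They are random plasmid tags, in lower case, and hold no human sequence. The sequences of the elements themselves were not used here.
PNLIPRP2 first barcode: gctctgtgagggatga
PNLIPRP2 second barcode: ttcgaatattcgcatt
CELA3A leading barcode: gtggtttggtaccgag
CEL leading barcode: taaatttcagtttcat
REG1A leading barcode: tttctgtagctagtcg
CTRB2 leading barcode: ttgatattttttgctc

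The elements at acinar loci gave little RNA for their plasmid. They held 1.97% of the plasmid DNA counts and 0.870%, 0.938% and 0.832% of the RNA counts of replicates 1, 2 and 3. Activity is given as normalised RNA/DNA, in which 1 is the centre of the whole library set by TMM normalisation and not the level of a control sequence. Summed over all their barcodes, the 54 elements stood at 0.744 ± 0.0346 times the centre (SD, n = 3 RNA libraries, each divided by the same DNA library), and the other 3324 elements stood at 1.69 ± 0.0254 times. All 3378 elements together summed to 1.67 times, so summed values here and below compare with that level and not with 1. The 3 libraries gave 0.740, 0.781 and 0.712 for the acinar elements, against 1.69, 1.66 and 1.71 for the others. The ranges of these sums over the 3 libraries did not overlap, but they do not show the spread among elements. The median element stood at 0.637 times the centre at the acinar loci and at 0.987 times among the others. From the lower to the upper quartile, log2 ratios ran from -1.09 to -0.02 at the acinar loci. Among the others they ran from -0.81 to 0.93, so the sets overlapped widely. The difference between these sets was not tested, because the elements were chosen with results of this library known.

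No element at an acinar locus was called above the centre by the quasi-likelihood test of edgeR (Benjamini-Hochberg adjusted p under 0.05), where 8.88% of all 3378 elements were called. The count was also 0 of 54 at an unadjusted p under 0.05, where 13.5% of all elements passed. It was 0 of 54 with limma-voom (15.1% of all elements) and with DESeq2 (23.2% of the 1806 elements that have an adjusted p there, 24 of the 54 among them). Not 1 of the 54 exceeded the centre in 3 of 3 RNA libraries, which 25.8% of all elements did. The median log2 RNA/DNA was -0.65 for the 54 elements and -0.03 for all elements. A ratio above the centre was found for 14 of the 54 (25.9%) and for 48.8% of all elements. In 3 of 3 RNA libraries, 25 of the 54 (46.3%) lay below the centre, against 29.4% of all elements. This comparison differed between elements that overlap another element and those that do not, as given below.

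No element was called below the centre either, among the 54 or in the whole library, so a value below the centre is not a call of low activity. At an unadjusted p under 0.05, 1 of the 54 lay below, and 0.770% of all elements did. With limma-voom, 9 of the 54 were called below the centre (4.03% of all elements), among them 1 element each at AMY2A, CLPS, CPB1, PLA2G1B and PNLIPRP1 and 3 at CTRB2. With library totals in place of TMM, 3 of the 54 were called below (1.48% of all elements), among them elements at CLPS and PNLIPRP1. In that setting the median log2 ratio of all elements was -0.77, against -0.03 with TMM, so values below 1 were more frequent in the whole library.

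The lowest activity called differed with the number of barcodes per element. There were 1079728 counts for the plasmid DNA, and 211117, 197554 and 218571 for the RNA of replicates 1, 2 and 3. The 54 elements shared 674 barcodes, with a median of 6 per element, as in the whole library, and a range from 2 to 77. Among all 1155 elements with 2 to 4 barcodes 3.38% were called, the lowest at 4.75-fold, and 21 of the 54 were in that class. The PNLIPRP2 element from 118380425, at a fitted 5.73-fold in that class, was not called, and its replicates were far apart. With 5 to 9 barcodes, 7.22% of all 1080 elements were called and 0 of the 15 acinar elements were. With 10 to 19 barcodes, 12.5% of all 720 were called and 0 of the 10 acinar elements were. Among elements with 20 or more barcodes the lowest called was 1.96-fold. In that class 22.0% of all 423 elements were called and 0 of the 8 acinar elements were, the highest of these being at 1.22-fold. The replicates are separate electroporations of the same plasmids, and 1 DNA library serves all of them, so SDs leave out the error of the DNA.

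Plasmids with RNA counts of 5 or more made up a smaller share at the acinar loci than in the whole library. A barcode marks 1 separately tagged plasmid. Barcodes with 5 or more RNA counts were 12.02%, 13.2% and 10.98% of the 674 acinar barcodes in replicates 1, 2 and 3. The exact 95% intervals (Clopper-Pearson) were 9.66 to 14.7%, 10.7 to 16.0% and 8.72 to 13.6%. Over all 35153 barcodes the shares were 22.7%, 22.1% and 23.4%. Only 4 acinar barcodes (0.593%, interval 0.162 to 1.51%) had 5 or more counts in each of the 3 RNA libraries, and 6.43% of all barcodes did. At least 1 count was found for 53.6%, 56.5% and 59.8% of acinar barcodes, against 62.0%, 65.1% and 67.6% of all. The median plasmid DNA count per barcode was 27 at the acinar loci and 26 overall. Barcodes of 1 element are not independent of each other, so the intervals cover counting error only and the difference was not tested. Every barcode in the table has at least 10 DNA counts and at least 1 RNA count in some library, so plasmids with 0 RNA counts throughout are not included.

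Lipid digestion had the largest share of the acinar barcodes. Its 16 elements summed to 0.861 ± 0.0512 times the centre (SD, n = 3) over 286 barcodes, with 0.920, 0.837 and 0.827 in the 3 libraries, and 7 of the 16 had a ratio above 1. PNLIPRP1 encodes a protein related to pancreatic lipase and had the best measured elements. Its element on chromosome 10 from 118350373 to 118350570, with 77 barcodes and 2342 DNA counts, gave 364, 260 and 375 RNA counts. These correspond to ratios of 1.33, 0.995 and 1.33, with a mean of 1.22 ± 0.195 (SD, n = 3). On the log2 scale the fit gave 0.29 ± 0.30 (SE; edgeR adjusted p = 0.868). Replicates 1 and 3 were above the centre and replicate 2 was at it, so the element was near the centre in every library. Its RNA was spread over its plasmids, with 6.91% from the leading barcode, and 10 of its 77 barcodes had 5 or more counts in at least 2 libraries.

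Within the same locus, the element from 118351233 to 118351430 had 67 barcodes and 2147 DNA counts and gave ratios of 0.862, 0.618 and 0.446. All 3 were below those of the first element, with a mean of 0.642 ± 0.209 (SD, n = 3) and a log2 ratio of -0.64 ± 0.37 (SE, edgeR adjusted p = 0.494). It was among those called below by limma-voom, with an adjusted p of 0.022, and with library totals in edgeR, at 0.0032. The difference between the pair was not tested. Fewer plasmids carried the elements from 118350573 and from 118350673, which had 7 and 3 barcodes. These tiles overlap by 98 bp. The ratios were 2.06, 0.442 and 0.257 for the first and 0.199, 0.521 and 0.775 for the second, in opposite order over the libraries.

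PNLIPRP2, a lipase that also acts on galactolipids, held the highest value of all 54 elements. At 118380425 to 118380622 of chromosome 10, its ratios were 0.268, 6.16 and 10.9 in the 3 libraries, with a mean of 5.79 ± 5.34 (SD, n = 3). The SD was nearly as large as the mean, and the log2 ratio of 2.52 ± 1.89 (SE) had an adjusted p of 0.708 in the edgeR test. This element rested on 2 barcodes with 32 DNA counts. The first barcode printed above had 12 DNA counts and RNA counts of 1, 11 and 42, and the second had 20 DNA counts and RNA counts of 0, 11 and 0. The element from 118380325 to 118380522 overlaps it by 98 bp and stood at 1.01 ± 0.0658 times the centre (SD, n = 3) over 4 barcodes. Its libraries gave 0.935, 1.03 and 1.06, near the centre in each replicate. The small SD does not show the spread among its plasmids, and the fitted log2 ratio was 0.0125 ± 1.45 (SE). The leading barcode held 55.2% of the RNA, with counts of 2, 15 and 15, and the next had 13, 2 and 4. The element from 118380723 had ratios of 1.50, 0.576 and 0.297 over 8 barcodes.

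CEL encodes the bile salt-activated carboxyl ester lipase of pancreatic juice. Its element on chromosome 9 from 135939982 to 135940179 had 47 barcodes and 1532 DNA counts and gave 109, 135 and 182 RNA counts. The ratios were 0.609, 0.790 and 0.989, all below 1, with a mean of 0.796 ± 0.190 (SD, n = 3) and a log2 ratio of -0.33 ± 0.40 (SE, edgeR adjusted p = 0.904). The element from 135941878 to 135942075 gave 2.23 and 2.21 in replicates 1 and 2 and 0.235 in replicate 3. It had 4 barcodes, and the CEL barcode printed above held 80.3% of its RNA, with counts of 25, 35 and 1. The third, from 135939760, gave 1.54, 0.646 and 1.50 over 5 barcodes, of which 1 held 72.9% of the RNA.

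CLPS encodes colipase, the cofactor that keeps pancreatic lipase active on fat droplets in bile. The element on chromosome 6 from 35763480 to 35763677 had 37 barcodes and 1290 DNA counts, with RNA counts of 82, 89 and 67. Its ratios of 0.545, 0.618 and 0.433 lay close together and below the centre, with a mean of 0.532 ± 0.0935 (SD, n = 3). The log2 ratio was -0.91 ± 0.49 (SE, edgeR adjusted p = 0.435), and limma-voom called it with an adjusted p of 0.0393. The tile from 35765107, nearest to the point, gave 1.09, 1.62 and 0.490 over 3 barcodes, of which 1 held 82.7% of the RNA. The tile from 35765960 gave 0.0564, 0.766 and 0.329 over 5 barcodes.

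PLA2G1B, the secreted pancreatic phospholipase A2, had 3 elements on chromosome 12. The overlapping tiles from 120763774 and 120763874 gave 0.367, 1.11 and 0.833 over 11 barcodes and 0.148, 1.39 and 1.72 over 3 barcodes. Replicate 1 was lowest in both. The element from 120765519 had 0, 14 and 1 RNA counts against 157 DNA counts over 3 barcodes. Its count of 0 allows up to 3 counts, from counting error alone, or a ratio of 0.164.

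The 15 serine protease elements summed to 0.766 ± 0.161 times the centre (SD, n = 3) over 100 barcodes, and 5 of them had a ratio above 1. PRSS1, the cationic trypsinogen, had the highest element with at least 5 barcodes among all 54. That element, on chromosome 7 from 142457191 to 142457388, gave ratios of 2.65, 2.54 and 0.737, with a mean of 1.98 ± 1.07 (SD, n = 3). Its 6 barcodes had 113 DNA counts and 35, 32 and 10 RNA counts. Replicate 3 was below the centre, and the log2 ratio of 0.98 ± 1.41 (SE) had an adjusted p of 0.942 in the edgeR test. The further PRSS1 elements, which start at 142459690, 142459790 and 142460248, had 2, 3 and 6 barcodes. Their RNA counts were 0, 0 and 2, then 2, 2 and 19, then 6, 33 and 1. Each of them took most or all of its RNA in 1 library, and the mean ratios were 0.135, 1.19 and 0.745. PRSS3, the mesotrypsinogen gene, had 1 element, on chromosome 9 from 33795480 to 33795677, with 25 barcodes and ratios of 0.414, 0.562 and 0.838. Its mean was 0.605 ± 0.215 (SD, n = 3), below the centre in 3 of 3 libraries, with a log2 ratio of -0.72 ± 0.66 (SE, edgeR adjusted p = 0.819).

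The values at the chymotrypsin genes varied, and differences between these genes were not tested. CTRC, which encodes a chymotrypsin that acts on trypsinogen, had 1 element on chromosome 1 from 15764832 to 15765029, with ratios of 1.33, 2.02 and 0.111 over 8 barcodes. CTRB1 had tiles on chromosome 16 from 75252715, 75252815 and 75252915. The middle tile, with 13 barcodes and 401 DNA counts, gave 1.39, 1.27 and 0.810, and its outer neighbours, with 4 and 2 barcodes, had 2, 0 and 18 and 1, 4 and 2 RNA counts and means of 0.442 and 0.258. The middle tile was above the one from 75252915 in 3 of 3 libraries. At CTRB2 all 4 elements had mean ratios below 1, from 0.196 to 0.476 over 2 to 6 barcodes. Summed over the 14 barcodes of the locus the ratios were 0.150, 0.726 and 0.0794, so RNA was seen mainly in replicate 2. The best covered, from 75239952 to 75240149, gave 0.325, 0.454 and 0.316 over 6 barcodes, below the centre in each library. The overlapping tiles from 75241015 and 75241115 had 1, 21 and 0 and 4, 4 and 0 RNA counts. The next tile, from 75241215 to 75241412, had 0, 18 and 0 RNA counts, of which the CTRB2 barcode printed above gave 16 in replicate 2 alone. This tile thus had a ratio of 1.43 in replicate 2, above the centre. The log2 ratio was -1.07 ± 1.86 (SE, edgeR adjusted p = 0.953), beside -2.98 with limma-voom, which called it below. Its counts of 0 allow ratios of up to 0.227 and 0.221 in replicates 1 and 3.

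CELA3A, a pancreatic elastase gene, had elements on chromosome 1 from 22331887 and from 22332121. The first gave 0.0897, 1.17 and 2.09, and the CELA3A barcode printed above held 88.0% of its RNA, with counts of 0, 20 and 46. The second gave 0.774, 0.599 and 1.36 over 11 barcodes. Summed, the locus was at 0.993 ± 0.589 times the centre (SD, n = 3), with replicate 3 highest.

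Carboxypeptidases trim amino acids from the ends of peptides, and none of the 8 elements at CPA1 and CPB1 had a mean ratio above 1. CPA1 had 6 elements, which is the most of any point, with means from 0.246 to 0.924. The best covered of these, from 130021560 to 130021757, gave 0.709, 1.11 and 0.952 over 13 barcodes, near the centre. The 3 tiles nearest the point, from 130020176, 130020276 and 130020376, each overlap the next by 98 bp and had means of 0.496 ± 0.291, 0.588 ± 0.867 and 0.504 ± 0.559 (SD, n = 3 each). These SDs cover the differences between the tiles. The tile from 130021660, which overlaps the best covered one, gave 0.168, 1.41 and 0.408 over 3 barcodes. The element from 130020877 was low and even, at 0.263, 0.220 and 0.255 over 6 barcodes, from 5, 4 and 5 RNA counts. CPB1 had an element on chromosome 3 from 148545495 at 0.587 ± 0.112 (SD, n = 3) over 13 barcodes. Its other element, from 148545722, had 2, 1 and 0 RNA counts against 70 DNA counts, and both were below the centre in 3 of 3 libraries.

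AMY2A, the pancreatic alpha-amylase that cleaves starch, had the lowest element of the 54. The tile on chromosome 1 from 104160027 to 104160224 gave 1, 1 and 4 RNA counts against 188 DNA counts over 4 barcodes, or 0.0901 ± 0.0754 times the centre (SD, n = 3). Its log2 ratio of -3.44 ± 1.77 (SE) had an adjusted p of 0.381 in the edgeR test and 0.00301 with limma-voom. The overlapping tile from 104160127 to 104160324 gave 0.852, 0.357 and 0.249 over 16 barcodes, higher than its neighbour in 3 of 3 libraries and below the centre in each.

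The REG genes encode small secreted lectins made by acinar cells and by the gut. Their 10 elements summed to 0.738 ± 0.0548 times the centre (SD, n = 3) over 140 barcodes, with 0.720, 0.800 and 0.695 in the 3 libraries. REG1B had a row of 4 tiles at steps of 100 bp on chromosome 2, starting at 79314931, 79315031, 79315131 and 79315231. Their means were 0.773 ± 0.285, 0.659 ± 0.414, 0.926 ± 0.130 and 0.555 ± 0.371 (SD, n = 3 each) over 7, 17, 41 and 6 barcodes. The ranges of the 4 tiles over the 3 libraries overlapped. The third tile, with 1136 DNA counts, gave 1.07, 0.820 and 0.887 and a log2 ratio of -0.11 ± 0.45 (SE, edgeR adjusted p = 0.992).

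REG1A gave a lower value in its best covered element. From 79347588 to 79347785, with 30 barcodes and 827 DNA counts, the ratios were 0.476, 0.596 and 0.564, with a mean of 0.545 ± 0.0618 (SD, n = 3) and a log2 ratio of -0.87 ± 0.65 (SE, edgeR adjusted p = 0.697). The tile from 79347488, which overlaps it by 98 bp, gave 1.55, 1.81 and 0.0886 over 3 barcodes. Of its RNA, 91.9% came from the REG1A barcode printed above, with 17, 17 and 0 counts, so the higher values of this tile rest on 1 plasmid. The elements from 79347885 and 79348645 were at 0.891 ± 0.356 and 0.631 ± 0.0365 (SD, n = 3 each) over 10 and 15 barcodes. REG3A had 1 element over 7 barcodes with ratios of 1.49, 1.03 and 0.494, which spread around the centre. REG3G had 1 element at 0.329 ± 0.278 (SD, n = 3) over 4 barcodes.

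Zymogen granule proteins were covered by 2 elements. CUZD1, a granule membrane protein, had an element on chromosome 10 from 124605237 to 124605434 with ratios of 0.241, 1.24 and 0.203 over 17 barcodes, high in replicate 2 alone. SYCN, which encodes the granule protein syncollin, had an element on chromosome 19 from 39694883 to 39695080 with ratios of 0.0688, 0.576 and 0.468 over 8 barcodes.

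Many of the acinar elements are tiles of a longer region at their own locus. An overlap of at least 50 bp with another barcoded element was found for 29 of the 54 (53.7%), against 16.2% of all counted elements. Of the 547 overlapping elements in the library 4.20% were called above the centre, beside 8.88% of all elements. The part of this overlap in the low values was not tested. The 29 overlapping acinar elements summed to 0.862 ± 0.0178 times the centre, and the other 518 overlapping elements to 1.26 ± 0.0418. The 25 without overlap summed to 0.656 ± 0.0713, and the other 2806 without overlap to 1.76 ± 0.0239 (SD, n = 3 throughout). The median log2 ratio of the acinar elements with overlap was -0.60, beside -0.41 for the other 518 overlapping elements. Without overlap it was -0.66, beside 0.06 for the other 2806. With overlap, 11 of the 29 acinar elements (37.9%) lay below the centre in 3 of 3 RNA libraries, and 38.2% of all 547 did. Without overlap, 14 of the 25 (56%) did, against 27.7% of all 2831. Overlapping elements share sequence and are not independent of each other.

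A single plasmid carried more than 50% of the RNA in 24 of the 54 elements, and 8 elements had no RNA count in at least 1 library. The shares of all elements with these traits were not determined, so they are not read as particular to the acinar loci. The leading barcode held a median of 48.3% of the RNA per acinar element and 41.0% over all elements. With 2 to 4 barcodes these medians were 75% and 63.5%. Trypsinogens, REG1A and REG1B, the chymotrypsinogen B pair, elastase 3 and amylase belong to families with near-identical copies. The sources used here do not say how oligonucleotides of such copies were told apart, so their assignment is uncertain. The 24 elements at these loci (PRSS1, PRSS3, REG1A, REG1B, CTRB1, CTRB2, AMY2A and CELA3A) had a median of 0.618 times the centre, and the other 30 had 0.651 times.

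A further 11 elements within 5 kb of a point were paired with 2 to 9 barcodes but are not in the count table, 4 of them at CLPS. Of the 1856 barcodes paired with elements in these windows 36.3% were counted, against 40.8% in the whole library. The counted element nearest to the edge of the rule was the CEL element from 135941878, at 4976 bp. The next counted elements outside it, at 8233 and 8333 bp from the PNLIP point, stood at 0.268 ± 0.0360 and 0.610 ± 0.319 times the centre (SD, n = 3 each) over 5 and 10 barcodes.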

How the data were processed

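The authors deposited raw counts per barcode for 1 plasmid DNA and 3 RNA libraries, as judged from the values, with a second table of barcode and element pairs. The sources used here do not state how reads were trimmed, how barcodes were matched or how the table was filtered. Groups came from the sample titles. For each element the barcode counts were added up and tested as RNA against plasmid DNA with edgeR 4.0.16 (R 4.3.3), using TMM, a quasi-likelihood fit over all 3378 elements and Benjamini-Hochberg adjustment at 0.05. SEs were derived from the log2 ratio and its F statistic. Ratios per library are normalised RNA over normalised DNA counts. DESeq2 1.42.0 and limma 3.58.1 (voom) were alternatives. Other steps used Python 3.11.15, pandas 2.3.3 and scipy 1.17.1. The fit was also run on simulated counts with known fold changes. There the DNA had counting error only and the RNA spread was taken from the same fit. That run therefore cannot check the error of the DNA library or the effect of few barcodes.

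The rule that chose the elements uses position only. The elements, the lists and the tests were chosen with earlier results of these data known. The plan was to name elements past the threshold (there were 0) and the 8 highest and 8 lowest with at least 5 barcodes. It also covered those with at least 20 barcodes and those that overlap another of the 54. Some of these elements are given by their mean or their RNA counts only. The p-values measure the spread between electroporations of 1 plasmid library. The values of 1 of the 54 elements are not reported here on their own.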

Additional observations from a re-analysis of the deposited data

How the results depend on the processing

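The count of 0 acinar elements above the centre was the same in all 13 alternatives that give calls. These were the normalisations, DESeq2, limma-voom, both filters, the low RNA counts, the leading barcode, leaving out each RNA replicate, and windows of 2 and 10 kb. The 2 kb window takes a part of the 54 from the reported fit, so its count of 0 was fixed in advance. The filters kept 33 of the 54 (at least 5 barcodes) and 46 (at least 100 DNA counts). Both dropped the PNLIPRP2 element from 118380425, which has 2 barcodes and 32 DNA counts. DESeq2 left 30 of the 54 without an adjusted p. Below the centre, 0 became 3 with library totals and 9 with limma-voom. Over all elements, 300 above became 169 with library totals, 511 with limma-voom and 115 once 1 to 4 RNA counts of a barcode were taken as 0, and 193 to 289 without 1 RNA replicate (193 without RNA replicate 2). All elements below went from 0 to 50, 136 and 7 in those settings, and 0 to 3 without 1 RNA replicate. The median log2 ratio of the acinar elements, -0.65, became -1.39 with library totals and -1.63 with low RNA counts set to 0, which also moved the median of all elements to -0.77 and -0.85. The acinar median minus that of all elements was between -0.78 and -0.41 in the 13 settings that give both, the reported one included. The causes of these moves were not tested. No paired analysis was possible because the groups share fewer than 2 replicate numbers, with 1 DNA library. In elements with 2 to 4 barcodes, the edgeR test called no activity under 4.75-fold.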
